A study of Torulaspora delbrueckii with 9 samples.

Results

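The regions described here are 44 sites on the chromosomes of the budding yeast Torulaspora delbrueckii at which 3 subunits of the origin recognition complex (ORC) were all found, and which lie far from the chromosome ends and from any other such site. They were chosen from 6 lists of chromatin immunoprecipitation (ChIP-seq) peaks, 1 list per library. Peaks of the 6 lists that overlapped were merged into 542 regions, and 198 regions with a peak in all 6 lists are called shared regions below. Of these, 158 lay at least 100 kb from both ends of their chromosome, where an end is position 0 or the last peak end in any list. The 44 isolated regions are those of the 158 whose nearest shared region on each side was at least 45 kb away, measured between summits, and the summit is the mean position of highest signal over the lists. The other 114 interior shared regions serve as the comparison. Whether these sites start replication was not measured, so that the name origin rests on ORC alone.

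The study tagged Orc1 with MYC in strains LRY3204 and LRY3211, Orc2 with V5 in strains LRY3142 and LRY3143, and Orc4 with V5 in strains LRY3138 and LRY3139, with 2 libraries per subunit. Precipitates were made with an antibody against the tag, and an untagged strain, JRY10156, gave 2 genomic input libraries and 1 mock precipitate. All cultures were grown in rich glucose medium (YPD) and cross-linked with formaldehyde, with no other treatment named in the labels. The design text calls the paired libraries technical replicates although their strain numbers differ, so that p-values measure only the spread between these libraries, which may be technical. By their peak names, Orc1 peaks were called against genomic input, and Orc2 and Orc4 peaks against the mock. Subunit, tag, antibody and control therefore cannot be told apart in any comparison of Orc1 with Orc2 and Orc4. The peak names also hold the words SIR and Kos3V5 in the Orc1 lists, the word subsample in all lists, and another number for the control strain, none of which the labels explain. The lists held between 248 and 408 peaks each, and they give no read totals, so that the depth of each library is unknown.

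ORC, whose subunits are numbered from Orc1, binds origins of DNA replication and, with Cdc6 and Cdt1, loads the MCM helicase there before S phase. An origin that fires sends replication forks in both directions, and each fork runs until it meets one from the neighbouring origin, so that the stretch on each side of an isolated origin is copied by long-travelling forks unless an unseen origin lies in it. Budding yeasts often place origins between genes. In Saccharomyces cerevisiae, Orc1 also recruits Sir1 at silent loci and is a paralog of the silencing protein Sir3.

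The rule fixes the spacing, which is given as a description. The distance from an isolated region to its nearest shared region ran from 45.9 to 74.6 kb with a median of 55.2 kb, against a median of 24.3 kb for the other interior regions. The 8 chromosomes, numbered as their sequences are, held 7, 9, 3, 8, 5, 4, 5 and 3 isolated regions in order. The longest series without another shared region between them was 6 isolated regions in a row on chromosome 4, from the region between FPT1 and NET1 to that between RDH54 and HSP26. Of the 190 gaps between neighbouring shared regions, 105 reached 45 kb, and 71 of these had an isolated region at one end or both. These 71 gaps added up to 4630 kb, which is 51.2% of the length in all gaps.

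The farthest from its neighbours was the region between NDT80, a transcription factor of meiosis, and KRE33, a nucleolar RNA acetyltransferase (chromosome 2, 871996 to 873103), with 74.6 kb to the nearest shared region. It was followed by the region between TVS1 and the tRNA gene TDEL0Atrna10S (chromosome 1, 1298916 to 1299826), with 72.3 kb. Next came that between PBP4 and FBP1, the gene of the gluconeogenic enzyme fructose-1,6-bisphosphatase (chromosome 5, 287712 to 289114), with 71.1 kb, and that between RRI1 and the glutamate dehydrogenase gene GDH2 (chromosome 1, 181971 to 183010), with 66.7 kb. The longest gap at an isolated region spanned 110 kb on chromosome 3, from 809602 to 920083, and held 4 regions found in some but not all lists. A gap of 101 kb on chromosome 2, from 248866 to 349550, had an isolated region at both ends, between CTA1 and SGF11 and between ADK1 and MSC3, and no peak of any list inside it.

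Near the spacing limit, the regions that only just met it were CLD1-TDEL0Ftrna4Y at 45.9 kb, TRM13-YPT11 at 46.4 kb, MCM7-RGL1 at 46.7 kb and MDM1-TMA23 at 47.8 kb, each named here by its flanking genes. The roles given for genes throughout are those of the genes of the same name in S. cerevisiae. Just short of it were 4 interior regions in neighbouring pairs. The pair on chromosome 3, between MCM3 and PET112 and between COA4 and SEC31, lay 44.8 kb apart. The pair on chromosome 5, between TDEL0Etrna12G and PXA2 and between SFP1 and DUS3, lay 44.7 kb apart.

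Isolation holds for regions found in all 6 lists, and 37 of the 44 isolated regions had a weaker region, with a peak in fewer lists, within 45 kb. The 7 with no peak of any list in that range were found on chromosomes 1, 4, 7 and 8. They were the region between IDI1, the gene of a sterol-pathway isomerase, and MRM1 (chromosome 1, 976312 to 977233), that between TDEL0A06660 and the polyamine transporter gene TPO4 (chromosome 1, 1162925 to 1164021), that between TVS1 and TDEL0Atrna10S, that between TIM54, a gene of mitochondrial protein import, and HSM3 (chromosome 4, 382195 to 383466), that inside PRM3, a gene of nuclear fusion in mating (chromosome 7, 296932 to 298007), that inside APC11, the catalytic subunit of the anaphase-promoting complex (chromosome 8, 560026 to 561018), and that between TDEL0H03670 and TDEL0H03680 (chromosome 8, 607997 to 609291). In 18 more, every weaker neighbour was found in 1 or 2 lists. The other 19 had a neighbour found in 3 or 4 lists, and 8 of these had one found in 4. Interior stretches within 45 kb of an isolated region held 2.91 weaker regions per 100 kb, against 3.28 in the rest of the interior.

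**Figure D1:**
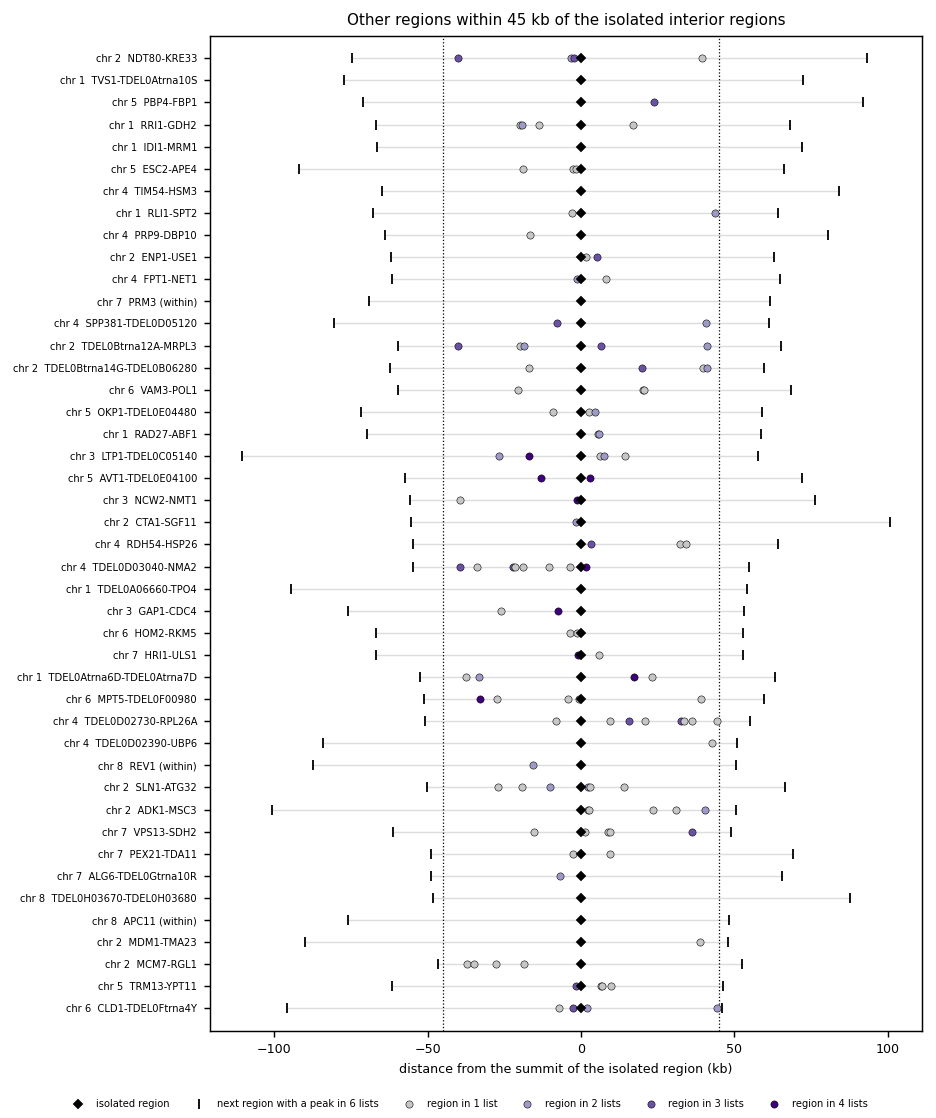
Distance in kb from the summit of each isolated region (diamond, 1 row each, with its chromosome and flanking genes) to weaker regions within 45 kb, coloured by the number of lists with a peak, and to the next shared region on each side (vertical ticks). The dotted lines mark 45 kb, and 7 rows hold no weaker region between them.

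The weaker neighbours numbered 102 distinct regions. Of these, 61 (59.8%) had a peak in 1 list, 19 (18.6%) in 2, 13 (12.7%) in 3 and 9 (8.82%) in 4. Among all 237 interior regions not shared by the 6 lists, 53.6% had a peak in 1 list. The highest fold enrichment over control within each neighbour, as the authors' peak caller gave it, had a median of 2.2 and ran from 1.62 to 6.83. Each Orc1 list held a peak in 6 of the 102, while the Orc2 lists did in 44 and 42 and the Orc4 lists in 64 and 12. Over all 237 interior regions of this kind the lists had a similar order, with 21 and 21 for the Orc1 lists, 87 and 101 for Orc2 and 165 and 27 for Orc4. Of the 61 seen in a single list, 29 came from the first Orc4 library, whose list was the longest. Without that library, 9 isolated regions in place of 7 had no peak within 45 kb.

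The strongest neighbours were close to isolated regions on chromosomes 5 and 7. A region between TDEL0E04100 and DNM1, a gene of mitochondrial fission (chromosome 5, 766747 to 767445), reached a fold of 6.83 and had peaks in 4 lists, both of Orc1 and the first of Orc2 and of Orc4, 2.98 kb from the isolated region between AVT1 and TDEL0E04100. A second neighbour of that isolated region, between APL1 and SAG1 (chromosome 5, 750849 to 751402), reached 5.94 and was found in the 4 Orc2 and Orc4 lists alone. The region between PHO80 and RRP6 (chromosome 7, 805455 to 805965) reached 5.06, had peaks of Orc1 alone, in both libraries, and lay 6.98 kb from the isolated region between ALG6 and TDEL0Gtrna10R.

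Fold enrichment, the ratio of signal in the precipitate to that in its control at the summit of the strongest peak, varied widely among the isolated regions. In a culture, binding in fewer cells and weaker binding in each cell cannot be told apart. The median over the 44 was 8.71 and 8.53 in the Orc1 lists, 14.5 and 16.5 in the Orc2 lists and 18.5 and 15.5 in the Orc4 lists. From the weakest to the strongest isolated region, the Orc1 lists ran from 2.24 to 14.3 and from 2.29 to 17.1. The Orc2 lists ran from 3.98 to 52.4 and from 3.15 to 49.5, and the Orc4 lists from 3.86 to 57.2 and from 3.02 to 38.1. Each list is relative to its own control, so that a fold set beside that of another list, here and in all that follows, describes the deposited values and not the amount bound. The Orc1 values spanned a smaller range, with a standard deviation over the 44 regions of 0.63 and 0.71 on the log2 scale, against 0.90 to 0.95 in the other 4 lists.

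**Figure D2:**
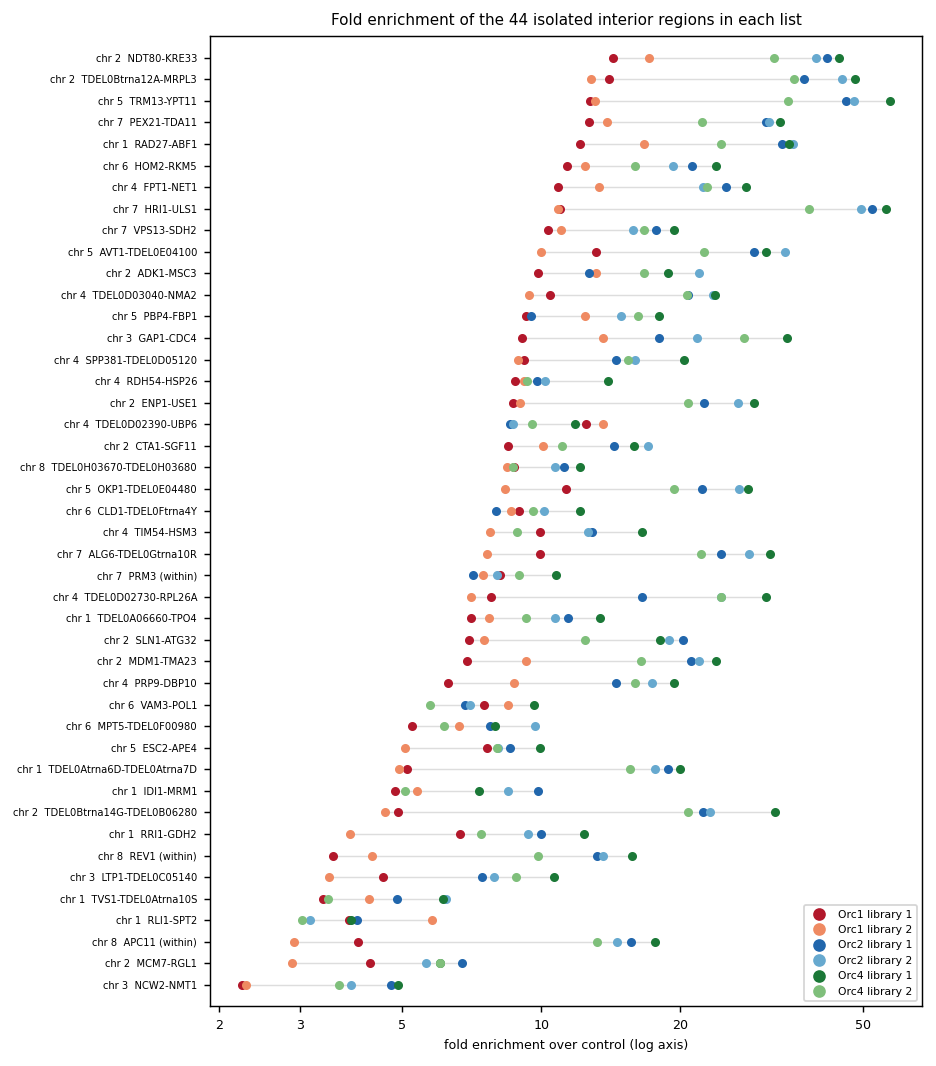
Fold enrichment over control (log axis) of each of the 44 isolated regions, 1 row per region with its chromosome and flanking genes and 1 point per list, ordered by the lowest of the 6 values. The top row, NDT80-KRE33, has 14.3 as its lowest value and the bottom row, NCW2-NMT1, has 2.24, and the Orc1 points lie leftmost in most rows.

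Ranked by the lowest of their 6 values, the first 3 isolated regions were on chromosomes 2 and 5. NDT80-KRE33 had folds of 14.3 and 17.1 in the Orc1 lists, 41.7 and 39.5 in the Orc2 lists and 44.4 and 32 in the Orc4 lists. The region between the tRNA gene TDEL0Btrna12A and MRPL3, a gene of the mitochondrial ribosome (chromosome 2, 1169823 to 1170882), had 14 and 12.9 in the Orc1 lists, 37.3 and 45.1 in the Orc2 lists and 48 and 35.4 in the Orc4 lists. That between TRM13, a tRNA methyltransferase gene, and YPT11, a gene of organelle inheritance (chromosome 5, 124724 to 126703), had 12.7 and 13.1 in the Orc1 lists, 46 and 47.8 in the Orc2 lists and 57.2 and 34.3 in the Orc4 lists. These 3 were above the median of the shared regions in all 6 lists, and their Orc2 and Orc4 values did not overlap with their Orc1 values.

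Next in that ranking was the region between PEX21, a gene of peroxisomal protein import, and TDA11 (chromosome 7, 227226 to 229272), with 12.7 and 13.9 with Orc1, 30.7 and 31.3 with Orc2 and 32.9 and 22.3 with Orc4. It was followed by the region between RAD27, which encodes the nuclease that trims Okazaki fragments, and ABF1, a general regulatory factor known to bind many origins in S. cerevisiae (chromosome 1, 424361 to 425773), with 12.2 and 16.7 with Orc1, 33.3 and 35.2 with Orc2 and 34.5 and 24.6 with Orc4. The region between HOM2, a gene of threonine and methionine synthesis, and RKM5 (chromosome 6, 869109 to 870324) had 11.4 and 12.5 with Orc1, 21.2 and 19.3 with Orc2 and 24 and 16 with Orc4. All 3 exceeded 10-fold in every list, as did 9 of the 44 isolated regions. That between FPT1 and NET1, a nucleolar gene of mitotic exit (chromosome 4, 317245 to 318425), had 10.9 and 13.4 with Orc1, 25.2 and 22.4 with Orc2 and 27.9 and 22.9 with Orc4. The region between HRI1 and ULS1, a DNA translocase gene (chromosome 7, 680616 to 682235), had 11 and 10.9 with Orc1, 52.4 and 49.5 with Orc2 and 56 and 38.1 with Orc4. HRI1-ULS1 held the highest Orc2 value of all isolated regions in both lists, whereas 9 isolated regions were above it in the first Orc1 list and 12 in the second.

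At the other end, the region between NCW2, a cell wall gene, and NMT1, the N-myristoyltransferase gene (chromosome 3, 335671 to 336274), had 2.24 and 2.29 in the Orc1 lists, 4.71 and 3.87 in the Orc2 lists and 4.89 and 3.64 in the Orc4 lists. The region between MCM7, a subunit of the replicative helicase, and RGL1 (chromosome 2, 558456 to 559358) had 4.25 and 2.87 in the Orc1 lists, 6.73 and 5.64 in the Orc2 lists and 6.05 and 6.04 in the Orc4 lists. The one inside APC11 had 4.01 and 2.91 in the Orc1 lists, 15.7 and 14.6 in the Orc2 lists and 17.7 and 13.2 in the Orc4 lists. NCW2-NMT1 was thus low in every list, whereas the APC11 region was low in the Orc1 lists and near the middle of the isolated regions in the others. The region between RLI1, a gene of ribosome recycling, and SPT2, a histone-binding protein gene (chromosome 1, 250031 to 250757), had 3.83 and 5.79 in the Orc1 lists, 3.98 and 3.15 in the Orc2 lists and 3.86 and 3.02 in the Orc4 lists, and here the groups overlapped.

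The 3 remaining regions farthest from a neighbour were not alike in level. TVS1-TDEL0Atrna10S had 3.36 and 4.23 with Orc1, 4.86 and 6.23 with Orc2 and 6.13 and 3.44 with Orc4. RRI1-GDH2 had 6.68 and 3.85 with Orc1, 10 and 9.35 with Orc2 and 12.4 and 7.42 with Orc4. PBP4-FBP1 had 9.26 and 12.4 with Orc1, 9.50 and 14.9 with Orc2 and 18 and 16.3 with Orc4. The first was thus near the bottom of the 44 in all lists. The last was above the median of the isolated regions in both Orc1 lists and the second Orc4 list. It was below that median in both Orc2 lists and the first Orc4 list. Over the 44 isolated regions, Spearman's rho between the distance to the nearest shared region and the lowest of the 6 folds was -0.06. The rule limits the 44 to long distances, and over all 158 interior shared regions rho was 0.21. Both are descriptions over regions that share the same libraries.

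The regions with no peak of any list within 45 kb ranged from low to middling in level. IDI1-MRM1 had 4.83 and 5.38 with Orc1, 9.86 and 8.45 with Orc2 and 7.35 and 5.05 with Orc4. TDEL0A06660-TPO4 had 7.03 and 7.70 with Orc1, 11.4 and 10.7 with Orc2 and 13.4 and 9.28 with Orc4, and TIM54-HSM3 had 9.94 and 7.73 with Orc1, 12.9 and 12.6 with Orc2 and 16.5 and 8.84 with Orc4. In these 3 the Orc1 values did not reach the median of the isolated regions except at TIM54-HSM3 in the first list. TDEL0H03670-TDEL0H03680 had 8.73 and 8.42 with Orc1, 11.2 and 10.7 with Orc2 and 12.1 and 8.68 with Orc4, with Orc1 values near the median of the isolated regions and the others below it.

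The remaining isolated regions lay between these extremes. On chromosome 2 they were the region between MDM1 and TMA23 (chromosome 2, 137790 to 138470), with folds over the 6 lists of 6.92 to 24, that between the catalase gene CTA1 and SGF11, a SAGA subunit gene (chromosome 2, 248207 to 249485), with 8.47 to 17.1, and that between SLN1, the osmosensor kinase gene, and ATG32, a gene of mitophagy (chromosome 2, 399193 to 400624), with 6.98 to 20.3. The region between ENP1, a gene of ribosome assembly, and USE1 (chromosome 2, 698726 to 700371) ranged from 8.70 to 29. On chromosome 3 the region between GAP1, the general amino acid permease gene, and CDC4, an F-box gene of the cell cycle (chromosome 3, 149740 to 151223), ranged from 9.10 to 34.2, and that between LTP1 and TDEL0C05140 (chromosome 3, 919689 to 920655) from 3.46 to 10.6.

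On chromosome 4 the region between TDEL0D03040 and NMA2, a gene of NAD synthesis (chromosome 4, 571592 to 573630), had 10.5 and 9.40 with Orc1, 20.8 and 23.7 with Orc2 and 23.9 and 20.7 with Orc4. The region between the splicing gene PRP9 and DBP10 (chromosome 4, 848457 to 849776) ranged from 6.29 to 19.4, and that between SPP381 and TDEL0D05120 (chromosome 4, 929003 to 930382) from 8.92 to 20.4. On chromosome 5 the region between ESC2 and APE4 (chromosome 5, 379702 to 380961) had 7.63 and 5.06 with Orc1, 8.58 and 8.06 with Orc2 and 9.96 and 8.02 with Orc4. The ranges were 9.98 to 33.8 between AVT1 and TDEL0E04100 (chromosome 5, 763622 to 764543), and 8.35 to 28.2 between the kinetochore gene OKP1 and TDEL0E04480 (chromosome 5, 835202 to 836549). On chromosome 6 the region between MPT5, a Pumilio RNA-binding protein gene, and TDEL0F00980 (chromosome 6, 170766 to 171838) ranged from 5.24 to 9.70. On chromosome 7 the region between VPS13 and SDH2, a succinate dehydrogenase gene (chromosome 7, 358103 to 359636), ranged from 10.3 to 19.4, while that between ALG6, a gene of protein glycosylation, and TDEL0Gtrna10R (chromosome 7, 811883 to 813491) had 9.97 and 7.62 with Orc1, 24.5 and 28.2 with Orc2 and 31.4 and 22.2 with Orc4. In each region of this group but MPT5-TDEL0F00980, both Orc1 values were below the other 4.

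Set beside the other 114 interior regions, the isolated ones had medians that were 1.22 and 1.06 times as high in the Orc1 lists, 0.999 and 1.08 times in the Orc2 lists and 1.06 and 1.24 times in the Orc4 lists. Between 23 and 26 of the 44 lay above the median of all shared regions, depending on the list. In all 6 lists at once, 14 of 44 (31.8%) were above it, against 33 of 114 (28.9%) of the other interior regions, and 11 (25%) were below it, against 42 (36.8%). The distributions overlapped over nearly their whole range, and 28 of the 198 shared regions (14.1%) and 3 of the 44 (6.82%) fell in the lowest 25% of every list. These counts are descriptions, since all regions come from the same 6 libraries.

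**Figure D3:**
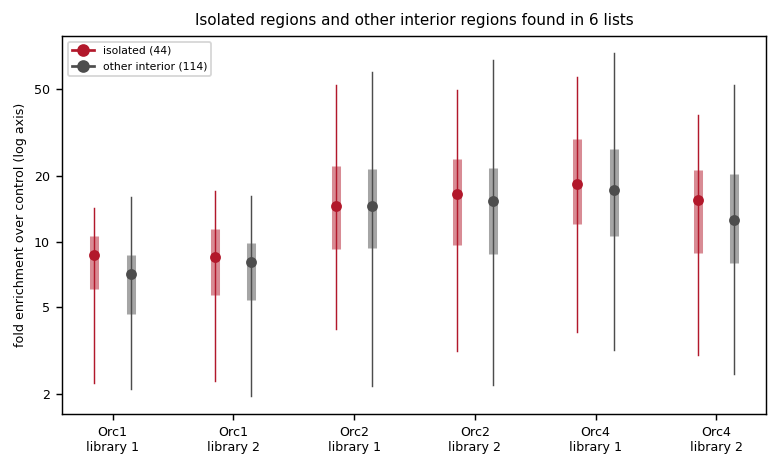
Fold enrichment over control (log axis) in each of the 6 lists for the 44 isolated regions and the other 114 interior shared regions, with points at the medians, thick bars over the middle 50% of regions and thin lines over the whole range. The medians of the isolated and the other regions run from alike, 14.5 and 14.5 in the first Orc2 list, to 15.5 and 12.5 in the second Orc4 list. The ranges overlap in every list.

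Positions relative to genes could be read from the RefSeq gene table of assembly ASM24337v1, whose chromosomes 1 to 8 matched the sequences of the lists. In 41 of the 44 isolated regions (93.2%) the summit lay between genes, as it did in 100 of the other 114 interior regions (87.7%). The stretch between the flanking genes measured from 64 to 1898 bp, with a median of 429 bp. The 3 exceptions lay inside PRM3, APC11 and REV1, the gene of a translesion DNA polymerase. Orientation was not used, since the table gives no strand.

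Genes of replication and chromatin were counted beside the isolated regions. Distances to genes were measured from the edges of each region, not from its summit. Within 1000 bp, 1 isolated region had a gene of ORC and licensing (MCM7), of 15 such genes in the table. In the same way, 1 had another replication gene (POL1, the catalytic subunit of DNA polymerase alpha), of 34. None had one of 9 checkpoint genes or 11 histone genes. Of 6 genes of silencing and general regulation, ABF1 and SIR4 were each within that distance of an isolated region, and of 57 ribosomal protein genes RPL26A was. These 1, 1, 2 and 1 regions are 2.27%, 2.27%, 4.55% and 2.27% of the 44. Over all 198 shared regions the shares for licensing, replication, silencing and ribosomal protein genes were 2.02%, 1.01%, 1.52% and 3.54%, and with 1 or 2 regions behind each value no difference is read from them. tRNA genes were within 1000 bp of 11 isolated regions (25%), of 35 other interior regions (30.7%) and of 51 of all 198 shared regions (25.8%).

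The region near SIR4, which in S. cerevisiae encodes a structural protein of silent chromatin, lay between ADK1, the adenylate kinase gene, and MSC3 (chromosome 2, 348807 to 350381). Its folds were 9.87 and 13.2 in the Orc1 lists, 12.7 and 22 in the Orc2 lists and 18.8 and 16.7 in the Orc4 lists. The second Orc1 value exceeded the first Orc2 value, so that the groups overlapped, and its centred difference between Orc1 and the other subunits was 0.29 (SE 0.21, adjusted p = 0.276 by limma, over all shared regions), not past the threshold. That depended on the scaling: with quantile normalization it was 0.63 (adjusted p = 0.0379), and without centring -0.60 (adjusted p = 0.0146). The region by RPL26A, at TDEL0D02730 (chromosome 4, 516954 to 518972), had 7.78 and 7.04 with Orc1, 16.6 and 24.6 with Orc2 and 30.8 and 24.6 with Orc4. Its Orc1 values were below all 4 others, and it had 8 weaker neighbours within 45 kb, as many as any isolated region.

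Orc1 was then compared with Orc2 and Orc4 together, by limma on log2 fold enrichment after each list was centred on its median over the shared regions, with p-values adjusted over all 198. A positive difference means that the log2 fold of a region, relative to the median of its list, was higher with Orc1 than with the other subunits; it is not a difference in rank. Among the isolated regions, Orc1 was higher in 10 and lower in 13. Over all shared regions 21.7% were called higher and 29.3% lower, and the shares of the isolated ones, 22.7% and 29.5%, were near this background. The median difference over the 44 was -0.09, and that over all shared regions was -0.11. On the log2 scale the isolated regions ran from -1.47 to 1.33.

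**Figure D4:**
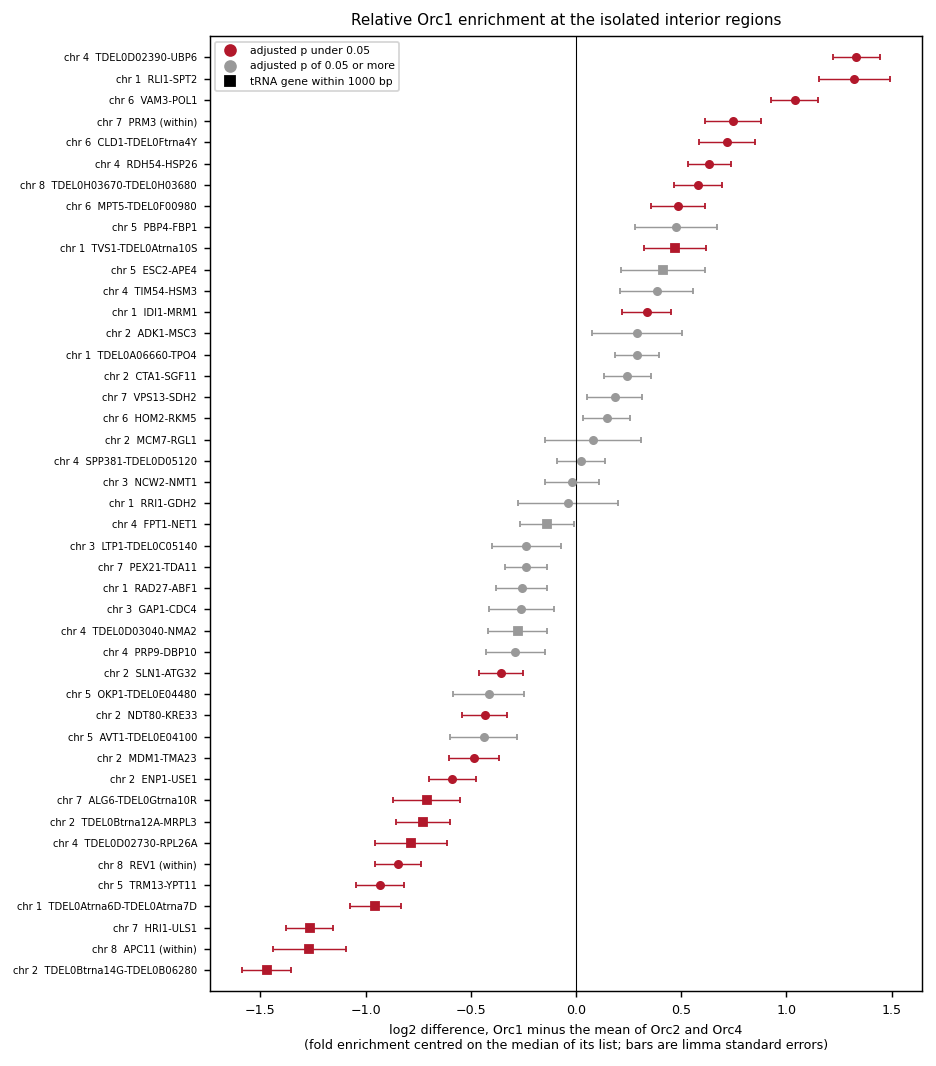
Difference in log2 fold enrichment between Orc1 and the mean of Orc2 and Orc4 (each list centred on its median over the shared regions) for the 44 isolated regions, with limma standard errors as bars, red where the adjusted p was under 0.05, and squares where a tRNA gene lay within 1000 bp. The differences run from -1.47 at TDEL0Btrna14G-TDEL0B06280 to 1.33 at TDEL0D02390-UBP6, and the 4 lowest are squares.

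The largest positive differences were at TDEL0D02390-UBP6, RLI1-SPT2 and VAM3-POL1. The region between TDEL0D02390 and UBP6, a proteasomal deubiquitinase gene (chromosome 4, 466168 to 467307), had folds of 12.5 and 13.6 in the Orc1 lists, 8.58 and 8.67 in the Orc2 lists and 11.8 and 9.56 in the Orc4 lists. Both Orc1 values exceeded all 4 others, which held in no other isolated region and in 2.02% of all shared regions, and the difference was 1.33 (SE 0.11, adjusted p = 7.91e-05). RLI1-SPT2 came next, with 1.32 (SE 0.17, adjusted p = 0.000586). The region between VAM3, a gene of vacuolar fusion, and POL1 (chromosome 6, 230212 to 231290) had 7.53 and 8.48 in the Orc1 lists, 6.84 and 7.02 in the Orc2 lists and 9.66 and 5.75 in the Orc4 lists, which overlapped, and its difference was 1.04 (SE 0.11, adjusted p = 0.000274). Without centring these 3 differences were 0.45, 0.44 and 0.15, with adjusted p of 0.0673, 0.0729 and 0.523, and passed no threshold. Since each list was centred, a region can be higher for Orc1 in this sense while its folds overlap.

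The other positive differences were smaller. The region inside PRM3 had 8.16 and 7.48 with Orc1, 7.12 and 8.0 with Orc2 and 10.8 and 8.95 with Orc4, with a difference of 0.75 (SE 0.13, adjusted p = 0.00223). The region between CLD1, a cardiolipin lipase gene, and TDEL0Ftrna4Y (chromosome 6, 625183 to 626547) had 8.95 and 8.58 with Orc1, 7.96 and 10.1 with Orc2 and 12.1 and 9.61 with Orc4, with a difference of 0.72 (SE 0.13, adjusted p = 0.00278). The region between RDH54, a gene of recombination, and the small heat-shock gene HSP26 (chromosome 4, 627061 to 628000) had 8.78 and 9.16 with Orc1, 9.82 and 10.2 with Orc2 and 14 and 9.31 with Orc4, with a difference of 0.63 (SE 0.10, adjusted p = 0.0016). The groups overlapped in PRM3 and CLD1-TDEL0Ftrna4Y, while in RDH54-HSP26 both Orc1 folds were below the other 4, and without centring the 3 differences were negative. The remaining 4 called higher were TDEL0H03670-TDEL0H03680, MPT5-TDEL0F00980, TVS1-TDEL0Atrna10S and IDI1-MRM1, with differences from 0.34 to 0.58. Without centring these 4 were negative too, at -0.31, -0.40, -0.42 and -0.55 in the order named, and IDI1-MRM1 was then called lower (adjusted p = 0.024). Quantile normalization ended the call of MPT5-TDEL0F00980 (adjusted p = 0.0902), TVS1-TDEL0Atrna10S (0.625) and IDI1-MRM1 (0.314).

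The largest negative difference was in the region between the tRNA gene TDEL0Btrna14G and TDEL0B06280 (chromosome 2, 1110297 to 1111107). Its folds were 4.90 and 4.59 in the Orc1 lists, 22.4 and 23.2 in the Orc2 lists and 32.1 and 20.9 in the Orc4 lists, and the difference was -1.47 (SE 0.12, adjusted p = 7.18e-05). The APC11 region followed with -1.27 (SE 0.17, adjusted p = 0.000691), and HRI1-ULS1 with -1.27 (SE 0.11, adjusted p = 0.0001). In all 3 both Orc1 values were below the other 4, and all 3 lay within 1000 bp of a tRNA gene.

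Between the tRNA genes TDEL0Atrna6D and TDEL0Atrna7D (chromosome 1, 581728 to 582646) the folds were 5.12 and 4.91 in the Orc1 lists, 18.8 and 17.6 in the Orc2 lists and 20.02 and 15.6 in the Orc4 lists, with a difference of -0.95 (SE 0.12, adjusted p = 0.000586). TRM13-YPT11 differed by -0.93 (SE 0.11, adjusted p = 0.00052), and quantile normalization between lists took its adjusted p to 0.059. The region inside REV1 (chromosome 8, 695654 to 697518) had 3.53 and 4.29 in the Orc1 lists, 13.2 and 13.6 in the Orc2 lists and 15.7 and 9.84 in the Orc4 lists, with a difference of -0.85 (SE 0.11, adjusted p = 0.000599). In these 3 regions, too, no Orc1 value reached any Orc2 or Orc4 value. The other 7 called lower were TDEL0D02730-RPL26A, TDEL0Btrna12A-MRPL3, ALG6-TDEL0Gtrna10R, ENP1-USE1, MDM1-TMA23, NDT80-KRE33 and SLN1-ATG32. Of these, 4 lost the call with quantile normalization. The differences and adjusted p were then -0.20 and 0.29 at TDEL0Btrna12A-MRPL3, -0.48 and 0.106 at ALG6-TDEL0Gtrna10R, and -0.36 and 0.0935 at MDM1-TMA23. At NDT80-KRE33 the sign turned, from -0.43 to 0.27 (adjusted p = 0.109).

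The counts depended on how the lists were scaled. With quantile normalization 12 isolated regions were higher and 9 lower, of which 7 and 8 were also called after centring, against 19.7% and 25.8% of all shared regions. Without centring 0 were higher and 33 lower, against 2.02% and 80.3% of all shared regions, and the median over all shared regions was then -1.0. On the folds as deposited, both Orc1 values were below all 4 others in 32 of the 44 isolated regions (72.7%) and in 81.3% of all shared regions. The difference also fell with the level of Orc2 and Orc4, with Spearman's rho of -0.73 over the 44 regions and -0.74 over all 198. This is a description, since the same values enter both measures, the lists have different controls, and the Orc1 lists span a smaller range.

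**Figure D5:**
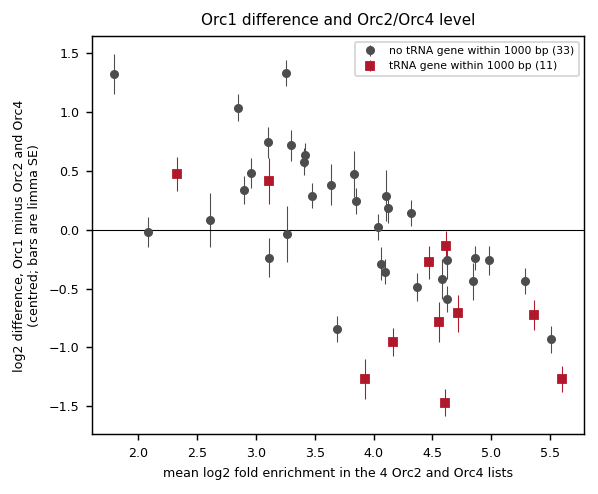
Centred log2 difference of Orc1 from Orc2 and Orc4 (vertical axis, bars are limma standard errors) against the mean log2 fold enrichment in the 4 Orc2 and Orc4 lists (horizontal axis) for the 44 isolated regions, with the 11 beside a tRNA gene as red squares. The differences fall from left to right, with Spearman's rho of -0.73, and 9 of the 11 squares lie below 0.

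The isolated regions beside tRNA genes, which RNA polymerase III transcribes, are described separately by their counts. Of the 11, 7 were called lower and 1 higher, 9 had a difference below 0, and the median was -0.73. Among the other 33, 6 were lower and 9 higher, with a median of 0.08. For the 35 other interior regions by tRNA genes, 16 were lower and 5 higher, with a median of -0.30. For the 79 other interior regions with no tRNA gene in that range, 23 were lower and 14 higher, with a median of -0.10. The medians by and away from tRNA genes thus lay closer together there than among the isolated regions. The 11 isolated regions by tRNA genes were also higher in the Orc2 and Orc4 lists, with median folds of 20.8, 23.2, 27.9 and 20.9. In the other 33 isolated regions these were 12.9, 14.9, 16.5 and 11.1. Their medians in the Orc1 lists were 7.78 and 7.04 against 8.73 and 8.74. The part of this level in the difference was not tested. Quantile normalization left 5 lower and 0 higher of the 11, with a median of -0.48, and 4 lower and 12 higher of the 33. It left 17 lower and 2 higher of the 35, and 22 lower and 11 higher of the 79.

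Orc2 and Orc4, which share tag, antibody and mock control, showed 0 of 198 shared regions past the adjusted threshold by limma. At an unadjusted p under 0.05, 26 of 198 (13.1%) differed, and 3 of the 44 isolated regions (6.82%) did, IDI1-MRM1, SLN1-ATG32 and GAP1-CDC4. The log2 difference of Orc2 from Orc4 over the isolated regions had a median of 0.04 and ran from -0.60 to 0.62. A value that misses the threshold does not show that the subunits were bound alike. Across the 44 regions Spearman's rho was between 0.90 and 0.97 for pairs among the 4 Orc2 and Orc4 lists, 0.86 between the Orc1 lists, and between 0.57 and 0.70 for an Orc1 list and another, as descriptions over regions that share libraries and controls.

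The peaks over the isolated regions were about a kilobase wide. Median widths were 1008 and 1063 bp in the Orc1 lists, 899 and 864 bp in the Orc2 lists and 931 and 848 bp in the Orc4 lists. The region covered by the peaks of all 6 lists had a median span of 1238 bp, from 604 to 2047 bp. In 40 of the 44 each list had 1 peak, while GAP1-CDC4, TRM13-YPT11, PEX21-TDA11 and the REV1 region had 7, 9, 8 and 7 peaks over the lists together.

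Orc1 peaks were wider in 2 isolated regions (4.55%) and narrower in 1 (2.27%) by limma on log2 width. Over all shared regions 10.1% were called wider and 1.52% narrower. Of the other 114 interior regions, 2 (1.75%) were called wider and 2 (1.75%) narrower. TDEL0H03670-TDEL0H03680 measured 1134 and 1182 in the Orc1 lists, 624 and 591 in the Orc2 lists and 749 and 708 in the Orc4 lists, in bp, with a log2 difference of 0.80 (SE 0.12, adjusted p = 0.0148). RAD27-ABF1 measured 1392 and 1413 in the Orc1 lists, 952 and 926 in the Orc2 lists and 930 and 1017 in the Orc4 lists, with 0.55 (SE 0.12, adjusted p = 0.0442). The Orc1 widths exceeded the other 4 in both. The REV1 region measured 591 and 645 in the Orc1 lists, 1166 and 1679 in the Orc2 lists and 1717 and 1000 in the Orc4 lists, with -1.13 (SE 0.26, adjusted p = 0.0442), and both Orc1 peaks were the narrowest. None of the 3 calls held under every setting. Centred widths took RAD27-ABF1 to 0.31 (adjusted p = 0.169 by limma), and 6 isolated regions were then narrower with Orc1 in place of 1. Over all 198 shared regions 29 were then called in either direction, in place of 23. Their median log2 width difference went from 0.17 to -0.07. RAD27-ABF1 lost its call whichever library was left out, with adjusted p up to 0.18, and the REV1 region did so with every library left out except the second of Orc4, with adjusted p up to 0.17. TDEL0H03670-TDEL0H03680 lost its call without the second Orc1 library or without either Orc2 library, with adjusted p up to 0.105.

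Summits fell close together. The 6 summits of an isolated region spanned a median of 95.5 bp, from 28 to 269 bp. The mean Orc1 summit lay a median of 55.6 bp from the mean Orc2 and Orc4 summit, and 49.3 bp in the other interior regions. Between libraries of one subunit the median distance was 25 bp (Orc1), 7.5 bp (Orc2) and 8 bp (Orc4). The Orc2 to Orc4 distance was 15.5 bp, so that Orc1 summits were the most distant from the rest. Leaving out one library at a time moved the 55.6 bp between 48.4 and 61.6 bp.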

How the data were processed

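Per the submitters' processing notes, the authors' tools were cutadapt 2.10, MACS2 2.2.7.1 and Bowtie2 2.3.4.1. The settings and the genome build were not given in the sources used here. One peak list per precipitate was deposited by the authors, called per library. Its columns hold fold enrichment over control (a linear ratio), the −log10 of p-values and q-values, and a display score, all as deposited by the authors. Folds are relative to the control of each list, so that folds set side by side across lists only describe the deposited values.

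Peaks overlapping by at least 1 bp were merged, and each region took, per list, the peak with the highest −log10 q-value. Coordinates are those of the lists, counted from 1. Gene names come from RefSeq's table for ASM24337v1, in which summits on each chromosome lay outside genes in 81.0% to 96.6%, against at most 42.1% on a chromosome of another number. Log2 fold, centred per list on its median over the 198 shared regions, and log2 width were fitted with limma 3.58.1 in R 4.3.3, with p-values adjusted by Benjamini and Hochberg over the 198 and a threshold of 0.05. The fit was checked on simulated data. Inputs and mock entered only through the peak calls, and no genome sequence was used here.

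Named regions were the 8 highest and 4 lowest by minimum fold, the 4 most distant, the 6 largest calls in each direction, those beside listed genes and those with no other region within 45 kb; the rest are given by range. The isolated regions, gene lists and tests were chosen with earlier results of these data known. Same-numbered libraries of different subunits gave no clear sign of pairing, so the fit had no block.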

Additional observations from a re-analysis of the deposited data

How the results depend on the processing

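The number of isolated regions was 44 with any 1 library left out, with an overlap of at least 50% of the shorter peak, with peaks in at least 5 lists and with region centres in place of summits. It was 49 with peaks of −log10 q-value of at least 10 only (43 of them among the 44), 58 with a spacing of 40 kb, 35 with 50 kb, and 50 when regions needed to be 50 kb from the ends. The isolated regions with no peak of any list within the spacing limit numbered 7, and 27 with peaks of −log10 q of at least 10, 11 with a spacing of 40 kb and 4 with 50 kb. Those within 1000 bp of a tRNA gene numbered 11 of 44, and 18 of the 58 with a spacing of 40 kb. With peaks of −log10 q of at least 10 they numbered 15 of 49. Without centring, Orc1 was higher in 0 and lower in 33 isolated regions, and the differences were -0.17 at CLD1-TDEL0Ftrna4Y, -0.14 at PRM3 and -0.25 at RDH54-HSP26. With peaks of −log10 q of at least 10, Orc1 was higher in 16 and lower in 14 of the 49 isolated regions of that setting. Over the 184 shared regions of that fit, 100 were called in either direction.

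The correlations of same-numbered deviations were 0.06, -0.15 and 0.19 between groups. These weak values gave no clear sign of pairing by replicate number, but cannot show that same-numbered libraries were handled apart. With the replicate number as a block, Orc1 was higher in 11 and lower in 13 isolated regions, and wider and narrower in 0 and 0. Over all 198 shared regions that setting called 100 for fold and 5 for width, in either direction. By limma its adjusted p for width was 0.0513 at TDEL0H03670-TDEL0H03680, 0.0822 at RAD27-ABF1 and 0.0997 at REV1. For width, the count of wider isolated regions was 1 with the width of the best peak, 1 with centred widths, 1 with interior regions alone and 1 with −log10 q of at least 10, and from 0 to 2 with a library left out. The count of narrower ones was 0, 6, 0 and 0 in the same order, and from 0 to 1 with a library left out. A subunit left with 1 library was assumed to vary like the others. Over all shared regions, in either direction, 12 of 198 were called with the width of the best peak and 29 of 198 with centred widths. With interior regions alone 1 of 158 was called, and with −log10 q of at least 10 it was 10 of 184. The cause of these shifts was not tested.

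The median distance from the Orc1 summit ran from 48.4 to 61.6 bp with a library left out. The log2 ratio of the Orc2 medians, isolated over other interior regions, was 0.06, and -0.088 with −log10 q of at least 10, 0.14 with 50 kb from the ends, and between -0.00158 and 0.17 with a library left out. Depth is unknown, and chromosome ends taken from a reference sequence were not run.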

Other observations

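Weaker regions also lay very near the isolated ones. Within 3 kb of the summit, 18 of the 44 isolated regions (40.9%) had one, as did 33 of the other 114 interior regions (28.9%). Within 10 kb the shares were 61.4% and 59.6%. The 22 distinct weaker regions within 3 kb of an isolated region had a median highest fold of 2.17, 11 of them were found in 1 list, and 2 had an Orc1 peak. Both windows were chosen after the values were seen, and no test was made. The span of an isolated region and the lowest of its 6 folds had a Spearman's rho of 0.55 over the 44 regions, and the length between the flanking genes had 0.21 over the 41 that lay between genes, as descriptions over regions of the same libraries.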
